A study of Mus musculus with 4 samples.

Results

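Genes of tissue macrophages and of complement C1q were followed through RNA-seq libraries of splenic natural killer (NK) cells, 10 in all: C1qa, C1qb, C1qc, Vcam1, Hmox1, Spic, Cd5l, Axl, Mrc1 and Apoe. They were chosen by name, their symbols were matched to NCBI Gene numbers, and a gene missing from a library was taken as 0. They are 10 of the 17723 genes listed in any library, and each of the 10 was listed in all 4 libraries. The study sorted NK cells from mouse spleen by surface DNAM-1, an activating receptor encoded by Cd226, and compared DNAM-1+ with DNAM-1- cells in health and in acute myeloid leukaemia (AML). All mice were C57BL/6J, aged 6 to 8 weeks, and were given no irradiation. The normal spleens were taken at day 0, and the AML spleens at day 17 after transplantation of GFP+ leukaemia cells taken from mice with MLL-AF9 leukaemia. There are thus 4 groups of 1 library each, always listed below as DNAM-1+ cells of the normal spleen, then its DNAM-1- cells, then DNAM-1+ cells of the AML spleen, then its DNAM-1- cells. With no replicates, the difference of a pair of libraries could not be checked against a second pair. Beyond the DNAM-1 sort, the labels state no gate, no purity and no number of mice per library.

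C1q is the recognition molecule that starts the classical complement pathway. It is built from A, B and C chains encoded by C1qa, C1qb and C1qc, and tissue macrophages are its main source, with a part of the dendritic cells also producing it. In the spleen, red pulp macrophages take up aged red cells, recycle their heme iron, and express Spic, Vcam1, Hmox1, Axl, Mrc1 and Cd5l, while Apoe is expressed by macrophages and also by several other myeloid cells. NK cells are not known as a source of C1q.

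Levels are the deposited FPKM (fragments per kilobase of transcript, scaled to a fixed number of mapped fragments), which account for gene length, so levels of different genes can be set side by side. Depth, inferred from how finely low microRNA values are stepped, was 9200000, 9000000, 9200000 and 8900000 fragments in the order of groups given above. Ranges written as 95% counting intervals come from the reads estimated at that depth. They leave out any variation from mouse to mouse, covering counting error alone, and reads without molecular identifiers are not independent molecules. The sort marker Cd226 stood at 38.6 and 36.1 FPKM in the DNAM-1+ libraries and at 0.45 and 0.58 FPKM in the DNAM-1- libraries. The NK receptor gene Ncr1 stood between 383 and 597 FPKM in the 4 libraries, and Klrb1c, which encodes NK1.1, between 318 and 422 FPKM.

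Promoter windows are given because the members moved together between the subsets, and because PU.1 (encoded by Spi1) and Spi-C are related Ets factors of macrophages that bind a GAGGAA core. The RefSeq promoter table of build GRCm38.p6 held 9 windows for 7 of the 10 genes, and none was matched for C1qa, Vcam1 and Hmox1. In the 250 bases before the start site, GAGGAA or its reverse complement TTCCTC was found in 7 of the 9 windows (C1qb, C1qc, Cd5l, Axl, Mrc1 and 2 of the 3 for Apoe), and in 23.3% of all 32851 windows of the table. The Maf half-site TGCTGA or its reverse complement TCAGCA was found in 3 of the 9, and in 16.1% of all windows. A match of this kind is a run of letters and no evidence of binding, and the genome build behind the deposited values is not given in the sources used here. Below, capitals mark GAGGAA or TTCCTC, each window is written 5′ to 3′ along the gene's strand, and the C1qc window stops before the first annotated exon base.
C1qb, chr4:136886201-136886450, minus strand: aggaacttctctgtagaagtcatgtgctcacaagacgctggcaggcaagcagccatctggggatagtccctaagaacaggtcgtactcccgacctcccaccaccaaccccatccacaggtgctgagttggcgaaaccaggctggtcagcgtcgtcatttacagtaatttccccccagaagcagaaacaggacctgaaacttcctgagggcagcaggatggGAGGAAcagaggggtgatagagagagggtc
C1qc, chr4:136893066-136893164, minus strand: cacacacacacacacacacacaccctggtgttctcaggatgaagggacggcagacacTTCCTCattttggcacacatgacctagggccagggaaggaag
Cd5l, chr3:87357631-87357880, plus strand: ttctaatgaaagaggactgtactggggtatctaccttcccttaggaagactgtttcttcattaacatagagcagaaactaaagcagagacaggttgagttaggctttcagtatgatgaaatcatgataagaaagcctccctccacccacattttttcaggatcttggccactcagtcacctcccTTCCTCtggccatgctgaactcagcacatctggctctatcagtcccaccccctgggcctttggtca
Axl, chr7:25788734-25788983, minus strand: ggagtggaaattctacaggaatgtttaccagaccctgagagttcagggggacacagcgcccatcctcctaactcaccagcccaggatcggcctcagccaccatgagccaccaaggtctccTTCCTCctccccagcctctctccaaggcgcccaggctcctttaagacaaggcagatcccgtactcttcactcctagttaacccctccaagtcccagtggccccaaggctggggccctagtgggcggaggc
Apoe, the window of the start farthest upstream, chr7:19699189-19699438, minus strand: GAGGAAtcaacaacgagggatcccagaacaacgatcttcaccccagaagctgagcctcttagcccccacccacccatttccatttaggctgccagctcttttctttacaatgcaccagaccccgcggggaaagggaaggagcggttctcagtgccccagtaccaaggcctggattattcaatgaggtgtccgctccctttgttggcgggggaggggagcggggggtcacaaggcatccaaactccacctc
Counted to the start at the end of the full window, the match began 30 bases before it in C1qb and 193 in C1qc. In Cd5l it began 66 bases before, in Axl 130 and in the Apoe window shown 250. In C1qc 151 of the 250 bases lie in an annotated exon, so the match lies nearer to the start of that transcript. The distances thus depend on the start chosen.

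The first question was whether the 10 genes differ between the DNAM-1 subsets. Each of them stood lower in DNAM-1+ than in DNAM-1- cells in the normal spleen and again in the AML spleen. No share of all genes with this order is given here, so it is a description. The C1q genes, Hmox1 and Apoe were at several FPKM or more in every library, and Cd5l, Axl and Mrc1 were low throughout. Apoe was the highest of the 10 and Hmox1 the next in each library, and Vcam1 ranked 6th in each. Mrc1 was the lowest in 3 libraries and Cd5l in the DNAM-1- AML library. Each library mixes the RNA of many cells, so fewer cells of a type and less RNA per cell cannot be told apart.

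**Figure D1:**
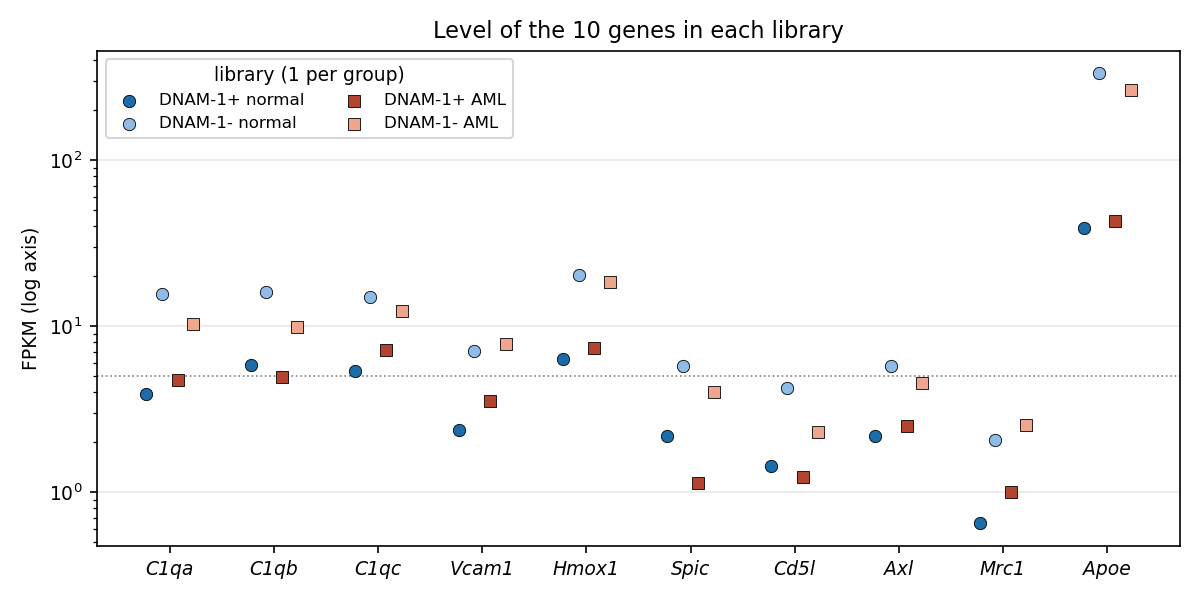
Level in FPKM (log axis) of the 10 genes in each of the 4 libraries, 1 library per group, with DNAM-1+ libraries dark, DNAM-1- libraries pale, normal spleen as circles and AML spleen as squares. For every gene both pale points lie above both dark points, and Apoe, at 334 and 266 FPKM in the DNAM-1- libraries, lies far above the other genes; the dotted line marks 5 FPKM.

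The 3 C1q chains stood close to each other in every library. C1qa (NCBI Gene 12259), the A chain, had 3.88 FPKM among DNAM-1+ and 15.56 among DNAM-1- cells of the normal spleen, and 4.75 and 10.27 among those of the AML spleen. C1qb (12260), the B chain, was at 5.82, 16.08, 4.95 and 9.93 FPKM in the same order. C1qc (12262), the C chain, was at 5.40, 14.98, 7.15 and 12.27 FPKM. For each chain both DNAM-1- libraries lay above both DNAM-1+ libraries, with the DNAM-1- normal library the highest. The highest chain was 1.07 times the lowest in DNAM-1- normal and 1.24 times in DNAM-1- AML cells, against 1.5 and 1.51 times in the DNAM-1+ libraries. In the RefSeq gene table the 3 genes are immediate neighbours on chromosome 4.

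The summed C1q level in DNAM-1+ cells was 32.4% of that in DNAM-1- cells in the normal spleen (95% counting interval 26.9 to 39.3) and 51.9% in the AML spleen (43.2 to 63.4). In the normal spleen C1qa was at 24.9% (16.8 to 36.2), C1qb at 36.2% (26.0 to 49.3) and C1qc at 36.0% (26.3 to 49.1). In the AML spleen the same chains were at 46.3% (31.5 to 67.0), 49.8% (34.5 to 71.5) and 58.3% (43.6 to 78.5). Within each spleen the intervals of the 3 chains overlapped.

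Vcam1, Hmox1 and Spic mark red pulp macrophages by different functions. Vcam1 (22329), an adhesion molecule that binds integrins of leukocytes, was at 2.38, 7.11, 3.53 and 7.82 FPKM. Hmox1 (15368), the heme oxygenase that degrades heme, was at 6.34, 20.22, 7.37 and 18.51 FPKM. Spic (20728), the transcription factor that red pulp macrophages need for their development, was at 2.17, 5.76, 1.14 and 4.01 FPKM. Again both DNAM-1- libraries lay above both DNAM-1+ libraries for each gene. The Spic value is uncertain, because 117 of the 1714 stretches of 50 bases in its transcripts also occur in transcripts of other genes, while for the other 9 members none does. The DNAM-1+ level of Vcam1 was 33.5% of the DNAM-1- level in the normal spleen (25.3 to 43.5) and 45.1% in the AML spleen (35.5 to 56.5). For Hmox1 it was 31.4% (24.3 to 39.8) and 39.8% (31.3 to 50.2). For Spic it was 37.7% (24.1 to 55.4) and 28.4% (15.6 to 48.1), the lowest share in the AML spleen after Apoe and the only one of the 10 that was smaller there than in the normal spleen.

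Cd5l, Axl and Mrc1 are a secreted protein and a pair of receptors. Cd5l (11801), a secreted scavenger-receptor cysteine-rich protein also known as AIM, was at 1.44, 4.26, 1.24 and 2.30 FPKM. Axl (26362), a receptor tyrosine kinase for GAS6 that takes part in the uptake of apoptotic cells, was at 2.19, 5.73, 2.50 and 4.54 FPKM. Mrc1 (17533), the mannose receptor CD206, was at 0.65, 2.07, 1.00 and 2.55 FPKM. Both DNAM-1- libraries were again higher than both DNAM-1+ libraries, at levels that for Cd5l rest on 23 to 77 estimated reads a library. In the normal spleen the DNAM-1+ share was 33.8% for Cd5l (20.3 to 52.1), 38.2% for Axl (29.3 to 49.2) and 31.4% for Mrc1 (20.5 to 47.5). In the AML spleen it was 53.9% (31.1 to 92.6), 55.1% (42.3 to 70.8) and 39.2% (27.5 to 55) in the same order.

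Apoe (11816), the apolipoprotein E of lipoprotein particles, had 38.84 FPKM among DNAM-1+ and 334.11 among DNAM-1- cells of the normal spleen, against 43.0 and 266.4 among those of the AML spleen. Its DNAM-1+ level was 11.6% of the DNAM-1- level in the normal spleen (10.6 to 12.8) and 16.1% in the AML spleen (14.7 to 17.7), the lowest share of the 10 in both. Apoe made up 78.5% and 78.7% of the summed FPKM of the 10 genes in the DNAM-1- normal and AML libraries, and 56.2% and 56.1% in the DNAM-1+ libraries. The ratio of Apoe to the summed C1q chains was 7.17 and 8.20 in DNAM-1- cells against 2.57 and 2.55 in DNAM-1+ cells.

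Past a 2-fold difference after adding 1 FPKM to both values, with the higher library at 5 FPKM or more, 8 of the 10 genes were lower in DNAM-1+ cells of the normal spleen. The other two, Cd5l and Mrc1, did not reach 5 FPKM. Of all 8915 genes past that level, 3.97% were lower by this rule. Of these 8, C1qa, Vcam1, Spic and Axl reached 5 FPKM through their DNAM-1- library alone and had to differ to pass, so the count is a description. In the AML spleen 6 members reached 5 FPKM and 2 of them, Hmox1 and Apoe, were at least 2-fold lower, beside 3.19% of 8839 genes. No member was 2-fold higher in DNAM-1+ cells of either spleen, beside 1.28% of genes in the normal and 0.894% in the AML spleen. The median log2 ratio of the 10 genes was -1.29 in the normal and -0.92 in the AML spleen, beside a median of 0.01 over all genes past 5 FPKM in each.

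The mean subset difference over both spleens was tested with limma on all 9074 genes that reached 5 FPKM in some library, with spleen as an additive term and 1 residual degree of freedom. Of the 8 members in that fit, 8 fell in DNAM-1+ cells at a Benjamini-Hochberg adjusted p below 0.05, beside 8.38% of all genes tested that fell and 7.35% that rose; Cd5l and Mrc1 were below the level for testing. C1qa, Vcam1, Spic and Axl entered the fit through DNAM-1- libraries alone, so their calls are no independent support, while C1qb, C1qc, Hmox1 and Apoe reached 5 FPKM in a DNAM-1+ library too. The log2 difference was -2.84 for Apoe (SE 0.11, limma, Benjamini-Hochberg adjusted p = 3.42e-05), -1.38 for Hmox1 (SE 0.099, adjusted p = 0.000335) and -1.10 for C1qb (SE 0.13, adjusted p = 0.00272), each lower in 2 of 2 spleens. It was -1.37 for C1qa (SE 0.19, limma, Benjamini-Hochberg adjusted p = 0.00515), -1.11 for Vcam1 (SE 0.16, adjusted p = 0.00672) and -1.01 for C1qc (SE 0.15, adjusted p = 0.00731), again lower in 2 of 2 spleens. Nearest to the threshold were Spic at -1.16 (SE 0.25, limma, Benjamini-Hochberg adjusted p = 0.0275) and Axl at -0.87 (SE 0.22, adjusted p = 0.0458), also lower in 2 of 2 spleens. The residual of this fit is the difference between the 2 spleens, so these p-values do not measure the spread between mice.

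The second question was whether the members share 1 ratio of DNAM-1+ to DNAM-1- level. In the normal spleen the 95% counting intervals of 6 of the 7 other members held the ratio of the summed C1q chains, 32.4%, and that of Apoe did not. Without Apoe the 9 shares ran from 24.9% (C1qa) to 38.2% (Axl). In the AML spleen the intervals of Vcam1, Cd5l, Axl and Mrc1, 4 of 7, held the C1q ratio of 51.9%. Those of Hmox1, Spic and Apoe lay below it. The intervals of Hmox1 and Spic overlapped the interval of the C1q ratio itself, and that of Apoe did not. Without Apoe the 9 shares ran from 28.4% (Spic) to 58.3% (C1qc) in the AML spleen. An interval that holds the C1q ratio does not show equal ratios: those of Cd5l, at 31.1% to 92.6% in the AML spleen, and of Mrc1 and Spic are wide. Summed FPKM without Apoe came to 30.3 with and 91.8 without DNAM-1 in the normal spleen, a share of 33.0%, and 33.6 and 72.2 in the AML spleen, a share of 46.6%.

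**Figure D2:**
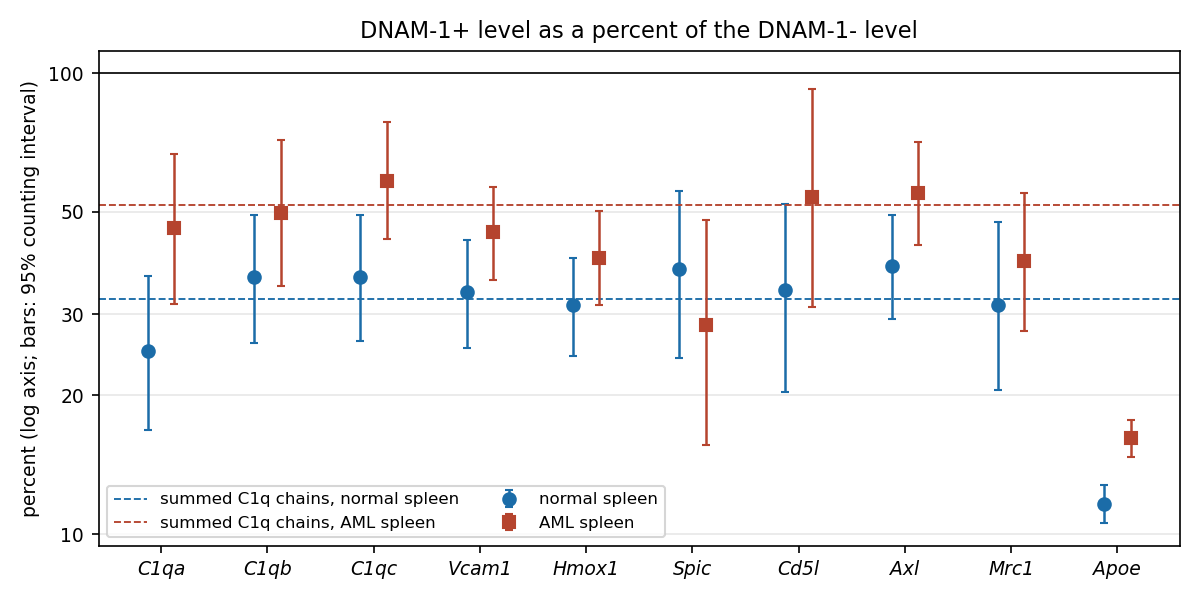
Level in DNAM-1+ cells as a percent of the level in DNAM-1- cells of the same spleen (log axis), with 1 pair of libraries per spleen and bars for the 95% counting interval; the dashed lines mark the summed C1q chains at 32.4% in the normal and 51.9% in the AML spleen. The first 9 genes lie between 24.9% and 58.3%, with Apoe apart at 11.6% and 16.1%.

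The AML comparison asked whether the members differ with leukaemia within each subset. In DNAM-1+ cells 7 members were higher and 3 lower in the AML library, and in DNAM-1- cells 2 were higher and 8 lower. None of the 4 members past 5 FPKM in DNAM-1+ cells was 2-fold different, beside 0.657% of 8682 genes. Of the 8 members past it in DNAM-1- cells none was 2-fold different either, beside 0.59% of 8808 genes. The median log2 ratio of the 10 genes was 0.17 in the DNAM-1+ contrast and -0.30 in the DNAM-1- contrast, with all genes past 5 FPKM at 0.01 and 0.00.

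In DNAM-1- cells the AML level of the summed C1q chains was 69.6% of the normal level (95% counting interval 60.5 to 81.2). C1qa was at 66.0% (50.2 to 86.4), C1qb at 61.8% (47.3 to 80.6) and C1qc at 81.9% (64.2 to 104). The intervals of Apoe (79.7%, 76.1 to 83.5), Axl (79.2%, 64.5 to 97.4), Spic (69.6%, 49.6 to 97.3) and Cd5l (54.0%, 35.9 to 79.7) also lay below 100%, making 6 of the 10 genes with C1qa and C1qb. Intervals were estimated for the members alone, so this count has no share of all genes beside it and is a description. Hmox1 at 91.5% (77.0 to 109), Vcam1 at 110% (91.1 to 133) and Mrc1 at 123% (94.0 to 163) had intervals that held 100%. Vcam1 and Mrc1 thus stood above the normal level by value, but no member had an interval that lay above it.

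In DNAM-1+ cells the summed C1q chains were at 112% of the normal level (89.9 to 141), and C1qa at 122% (76.9 to 195), C1qb at 85.1% (57.1 to 128) and C1qc at 132% (93.2 to 190). Vcam1, at 148% (109 to 201), was the only member whose interval lay above 100%. Spic, at 52.5% (28.1 to 96.4) and 18 estimated reads in the AML library, was the only one below. The other members, Hmox1, Cd5l, Axl, Mrc1 and Apoe, lay between 86.1% and 154% with intervals that held 100%. Apoe, with the narrowest of them, was at 111% (97.9 to 125). The limma AML coefficient of the same fit called 0 of the 8 members, beside 0.353% of the 9074 genes. Its lowest adjusted value among them was that of C1qb, which stood 0.42 lower on the log2 scale in AML (limma, Benjamini-Hochberg adjusted p = 0.302, unadjusted p = 0.0163, lower in 2 of 2 subsets), and 1136 of all genes had an unadjusted p below 0.05.

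**Figure D3:**
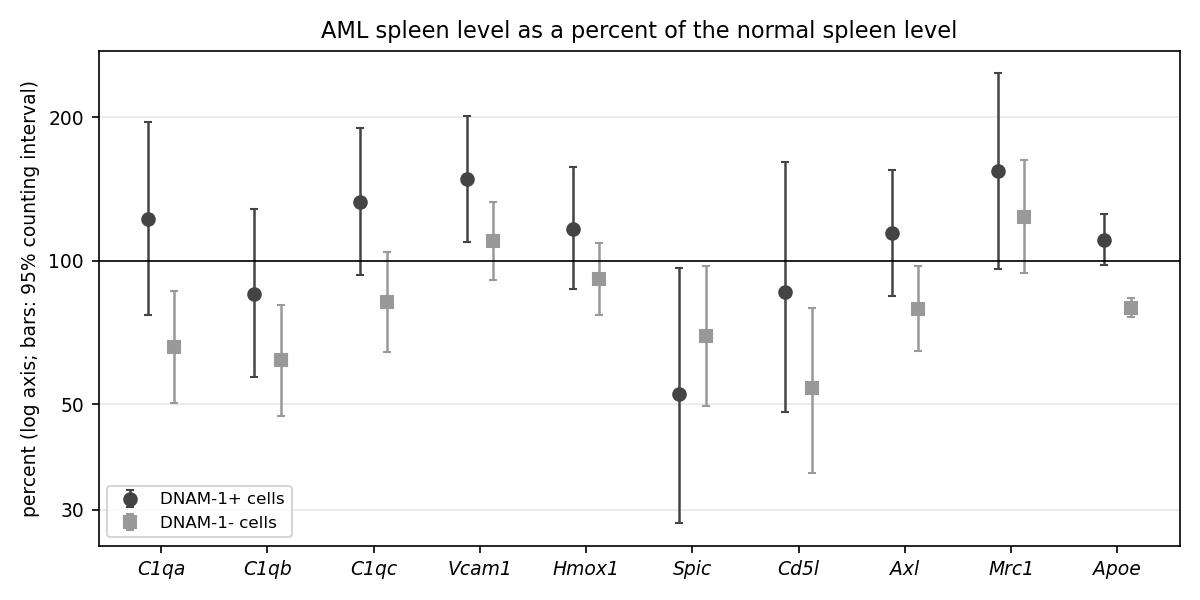
AML spleen level as a percent of the normal spleen level (log axis) for the 10 genes in DNAM-1+ cells (dark circles) and DNAM-1- cells (grey squares), 1 library each, with bars for the 95% counting interval. In DNAM-1- cells 8 of 10 points lie below 100%, and in DNAM-1+ cells 7 lie above it.

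Accordingly, the gap between the subsets was smaller in the AML than in the normal spleen for 9 of the 10 genes, all but Spic. The log2 difference of the subset ratios, AML minus normal, was 0.68 for the summed C1q chains (95% counting interval 0.30 to 1.06), 0.89 for C1qa (0.15 to 1.63), 0.69 for C1qc (0.10 to 1.29), 0.53 for Axl (0.02 to 1.04) and 0.47 for Apoe (0.29 to 0.66). For C1qb it was 0.46 (-0.21 to 1.13), and the intervals of Vcam1, Hmox1, Spic, Cd5l and Mrc1 also held 0. Over all 9074 genes the median difference was 0.01, and 52.3% of genes were above 0. With 1 library a group this difference has no residual degree of freedom and was not tested against the spread between mice. The differences given above for single members were taken without an added FPKM. After adding 1 FPKM, the median difference was 0.43 over the members, 0.23 over the 14 other tissue macrophage markers that reached 1 FPKM and 0.23 over 8 B cell markers. It was above 0 for 9 of the 10 members, 12 of these 14 macrophage markers, 7 of the 8 B cell markers and 8 of 10 non-classical monocyte markers. Among neutrophil markers it was above 0 for 5 of 8, and among plasma cell markers for 3 of 7. A smaller gap in AML was thus not particular to the members.

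Other markers of macrophages were then read in the same libraries. Of 20 tissue macrophage markers, 14 reached 1 FPKM in any library and 8 entered the limma fit, of which 6 fell and 1 rose in DNAM-1+ cells. Beside the counts of this and the following lists stand 8.38% of all genes tested that fell and 7.35% that rose. Their summed level was 62.2 and 224 FPKM in the DNAM-1+ and DNAM-1- libraries of the normal spleen, and 66.5 and 207 in those of the AML spleen. Csf1r, the receptor for the macrophage growth factor CSF1, was at 7.31, 59.7, 9.84 and 57.58 FPKM, the phagosomal glycoprotein gene Cd68 at 12.6, 42.31, 10.83 and 40.72, and Mpeg1, which encodes perforin-2, at 7.62, 45.04, 10.17 and 40.18. These 3 fell, as did Adgre1 (the F4/80 antigen), Fcgr1 and Sirpa, and the transcription factor Maf rose, with 10.9, 7.72, 11.7 and 8.05 FPKM. Itgad, the integrin gene of CD11d, was at 10.76, 9.38, 10.88 and 8.46 FPKM and did not pass the test, with DNAM-1+ shares of 115% and 129%, and the scavenger receptor gene Cd163 was at 1.71, 1.90, 1.72 and 1.43 FPKM. Neither followed the direction of the 10 genes in both spleens. Of the 6 markers below 1 FPKM in every library, Clec4f was not listed, and the highest values were 0.08 FPKM for Vsig4, 0.17 for Cd209b, 0.36 for Timd4, 0.52 for Trem2 and 0.91 for Marco. Siglec1 was at 0.30, 1.56, 0.15 and 0.48 FPKM.

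Of 27 other complement genes, 18 reached 1 FPKM and 11 were tested. C3, the central complement component, Cfp, which encodes properdin, Cr2, Cd55 and Lair1, whose product binds C1q, fell, and none rose. The 3 with the highest levels, Itgb2, Calr and Itgax, are expressed well above 200 FPKM in every library, and none of them passed the test. Of 15 heme and iron genes 13 were tested, 6 fell (Fth1, Ftl1, Nfe2l2, Bach1, Blvrb and Slc11a1) and Slc11a2 rose. Their summed DNAM-1+ level was 74.9% of the DNAM-1- level in the normal and 78.1% in the AML spleen. The shares of those that fell differed, with Fth1 at 82.7% and 77.5% and Slc11a1 at 16.6% and 10.8%. The iron exporter gene Slc40a1, at 1.34, 3.90, 1.81 and 4.26 FPKM, was below the level for testing. Of 18 genes of apoptotic cell uptake 10 were tested, with Cd36, Lrp1, Itgb5 and Abca1 lower and Itgb3 higher. Mertk, the related receptor of Axl, was at 0.24, 1.13, 0.31 and 0.53 FPKM.

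Of 18 lipoprotein and lipid genes 13 were tested, and 7 fell (Apoc2, Fabp4, Pparg, Cd36, Lrp1, Plin2 and Abca1) while Rxra rose. Apoc2, which lies in the same gene cluster as Apoe, was at 0.97, 15.76, 1.58 and 12.88 FPKM, a DNAM-1+ share of 6.15% in the normal and 12.3% in the AML spleen, and Apoc4 was not listed. Among the 5 genes of integrins that bind VCAM-1, Itgb1 and Itgb7 rose in DNAM-1+ cells and Itga4, at 252, 248, 286 and 303 FPKM, did not pass the test. No gene of these 6 lists was called for AML.

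Markers of other cells moved with the members between the subsets. All 8 B cell markers fell, with a sum of 205 and 230 FPKM in the DNAM-1+ normal and AML libraries against 1049 and 1012 in the DNAM-1- libraries, and with DNAM-1+ shares from 17.3% to 22.6% in the normal and 21.0% to 24.7% in the AML spleen. Of the 10 non-classical monocyte markers 9 fell, and the summed level was 505 and 569 FPKM against 826 and 818. Spn, the one that did not fall, made up much of these sums, at 382, 371, 428 and 424 FPKM in the order of groups. The median share of the 10 markers was 10.2% in the normal and 12.2% in the AML spleen, beside 11.6% and 16.1% for Apoe. Lyz2, the lysozyme gene of myeloid cells, had a share of 12.2% and 16.5%, while Ccr2 of the same classical monocyte list had 124% and 130%. Among the tissue macrophage markers, Csf1r had a share of 12.2% and 17.1%, Mpeg1 16.9% and 25.3%, and Cd68 29.8% and 26.6%. The median of that list was 20.2% and 26.0%. Of 9 neutrophil markers 6 were tested and fell, with sums of 91.6 and 63.6 FPKM against 169 and 131. Of 7 plasma cell markers 4 were tested and 3 fell. The part of these cells in the level of the 10 genes was not tested.

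The remaining lists were mixed. Of 8 T cell markers 5 were tested and 4 rose in DNAM-1+ cells, with sums of 77.5 and 72.6 FPKM against 34.0 and 29.3. Among 8 NK cell markers Ncr1 rose and the others did not pass the test, at sums of 7417 and 7849 FPKM with and 6548 and 7705 without DNAM-1. Among the classical monocyte markers Lyz2 fell and Ccr2 rose. Of 8 dendritic cell markers 2 were tested and Cd209a fell. Of 8 erythroid markers 1, Hba-a1, was tested and fell. Of 8 progenitor and leukaemia markers Kit was tested and rose, and Mpo was at 0.25, 0.26, 1.58 and 2.29 FPKM. Of 9 endothelial markers only Pecam1 reached 1 FPKM, and Emcn was not listed. No stromal marker reached 1 FPKM, Ccl21a was not listed, and the 8 summed to at most 0.98 FPKM. Of the 6 platelet markers 1, Gp1bb, reached that level.

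**Figure D4:**
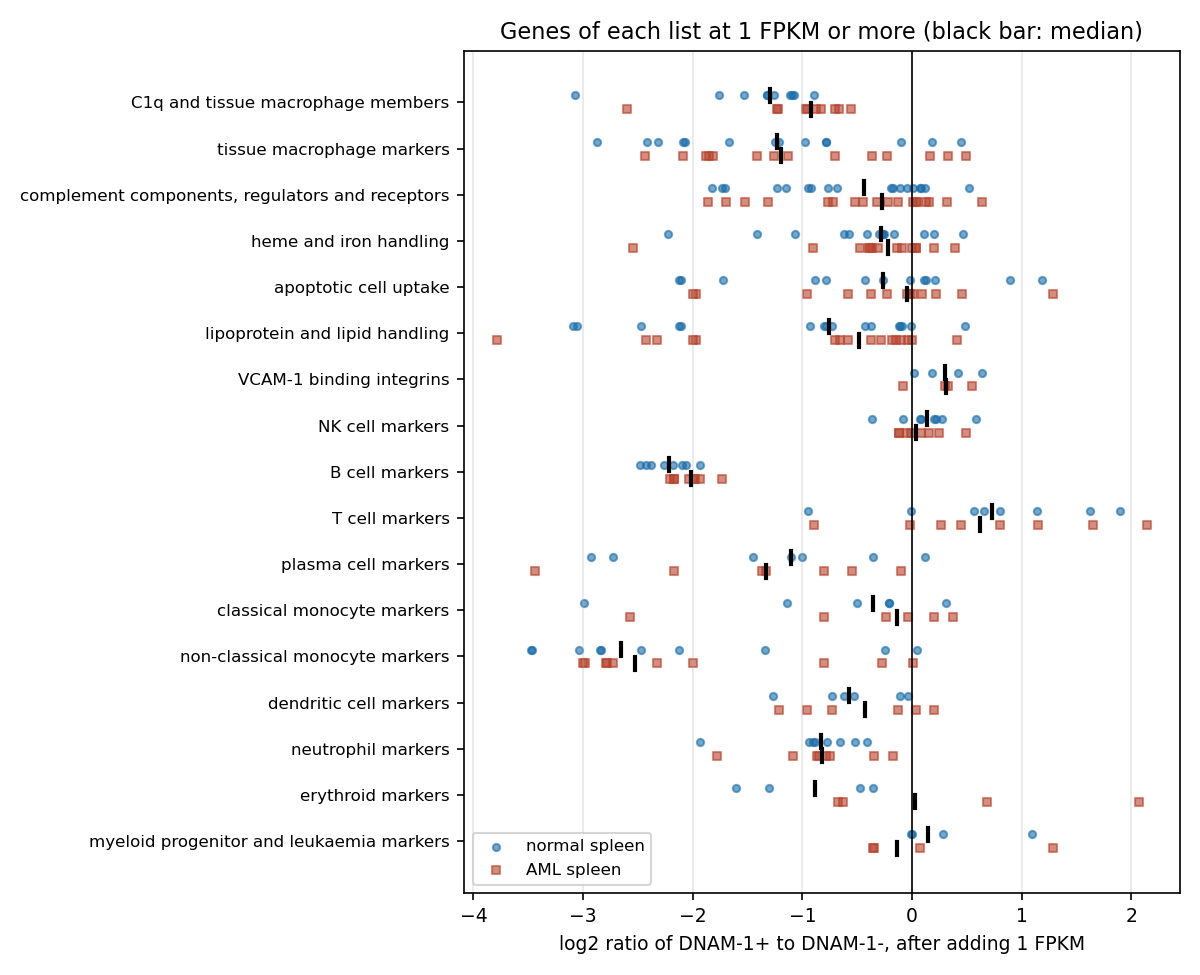
Log2 ratio of DNAM-1+ to DNAM-1- level after adding 1 FPKM, 1 point per gene at 1 FPKM or more in any library, for the 10 genes and for the other lists, in the normal spleen (blue circles) and the AML spleen (red squares), with a black bar at the median; endothelial, stromal and platelet lists, with at most 1 such gene, are not drawn. The 10 genes have medians of -1.29 and -0.92, and the tissue macrophage markers of -1.23 and -1.19. The B cell (-2.22 and -2.01) and non-classical monocyte markers (-2.65 and -2.53) lie further to the left. Adding 1 FPKM shrinks the ratios of low genes. Without it, the median DNAM-1+ share in the normal and AML spleen was 33.6% and 45.7% for the 10 genes. It was 20.2% and 26.0% for the tissue macrophage markers, beside 19.9% and 23.6% for the B cell markers.

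Finally, the protein-coding genes whose levels ran most like those of the C1q chains over the 4 libraries were sought by the Euclidean distance between centred log2(FPKM + 1) profiles, among 8658 that reached 5 FPKM. The nearest was Snx8, a sorting nexin gene, at a distance of 0.08 and with 3.67, 12.56, 4.38 and 8.96 FPKM. It was followed by the immediate early transcription factor genes Nr4a1, at 0.11 and with 65.14, 166.97, 72.53 and 127.38 FPKM, and Atf3, at 0.12 and with 5.21, 16.67, 5.22 and 10.93 FPKM. Pygl, Cdkn1a, Bcl6, Haao and Chchd10 came next, at distances of 0.14 to 0.18. The chains themselves ranked 18th (C1qa), 27th (C1qb) and 28th (C1qc), but the profile sought is their own mean, so these ranks are partly set by it. Of the other members, Axl ranked 52nd, Hmox1 57th, Vcam1 140th and Spic 150th. Apoe ranked 8342nd, at a distance of 1.68. Apoe ordered the 4 libraries as C1qa did, with larger differences between the subsets. With 4 libraries such a likeness is a description of the order of the groups and of the size of their differences.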

How the data were processed

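Total RNA of sorted splenic NK cells was sequenced on the BGISEQ-500 platform, per the labels' protocols. The authors deposited FPKM, per the file headers, for genes above 0 under NCBI Gene numbers; Bowtie2 2.2.5 and RSEM are named in the submitters' processing notes, and their roles, the genome build and the annotation are not given in the sources used here. Of 17723 gene numbers 17668 matched a symbol in the RefSeq table of GRCm38.p6, and the libraries list 15460 to 16161 genes. Depth was inferred from the spacing of low FPKM values of microRNAs 55 to 140 nt long: 84.7% to 91.5% lay within 0.1 of a whole number of up to 6 reads. Reads of a member are FPKM times its transcript length less 36 nt times that depth, and ratio intervals are exact (Clopper-Pearson) at 95%. The 95% intervals of the differences between subset ratios are instead normal approximations from the same reads.

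Contrasts are log2 ratios after adding 1 FPKM, which understates differences of low genes, and carry no test. A two-sided limma model (version 3.58.1, trended variance, under R 4.3.3) was fitted to the log2(FPKM + 1) values of the 4 libraries, additive in subset and spleen, with Benjamini-Hochberg adjustment over 9074 genes, called below 0.05. The calculations used Python 3.11.15 with pandas 2.3.3 and scipy 1.17.1. The calculation was tested on simulated data, which does not stand in for the spread between mice. Alternatives were other pseudocounts, filters, scaling to TPM or to the median, and limma without the trend.

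Genes named are the 10 members, Cd226, Ncr1 and Klrb1c, the 3 with the highest mean and those at 0 in each list, and the 8 nearest the C1q profile. Others were named after their values were seen, to say which genes of a list were called or, for Adgre1, Itgad, Cd163, Siglec1, Mertk, Slc40a1, Apoc2 and the markers near 0, as defining or related genes. The members, the 6 pathway lists and the 13 lists of other cell types were chosen with earlier results of these data known. 1 item of the classical monocyte list is not reported here.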

Additional observations from a re-analysis of the deposited data

Results flagged for a closer look

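For 5 of the 10 genes the AML level was above the normal level in DNAM-1+ cells and below it in DNAM-1- cells. In DNAM-1+ cells the counting intervals of all 5 held the normal level. In DNAM-1- cells those of C1qc and Hmox1 held it too, so an opposite AML effect is not shown for these genes. The difference between these log2 AML effects, DNAM-1+ minus DNAM-1-, was 0.89 for C1qa, 0.69 for C1qc, 0.34 for Hmox1, 0.53 for Axl and 0.47 for Apoe. With 1 library in each group the difference was not tested. The counting intervals of these differences lay above 0 for C1qa, C1qc, Axl and Apoe and held 0 for Hmox1.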

How the results depend on the processing

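No paired analysis was possible because the labels give no mouse or replicate number, and no library could be left out with 1 a group. In the normal spleen 8 members were 2-fold lower in DNAM-1+ cells; with a pseudocount of 5 FPKM these were 3, and with a filter of 20 FPKM 2. In the AML spleen the 2 became 4 with a pseudocount of 0.1 FPKM, 1 with 5 FPKM, 1 with a filter of 20 FPKM and 6 with TPM. Of the members at 5 FPKM or more in the AML spleen, 1 of 3 held the C1q ratio, in place of 4 of 7. With a filter of 20 FPKM limma tested fewer genes and called 2 members in place of 8. Over all genes, limma without the trend called 882 genes for the subset in place of 1427, and 5 for AML in place of 32; for AML a filter of 1 FPKM gave 9, one of 20 FPKM 69, and TPM 8. The 2-fold counts over all genes ranged from 143 to 590 around 354 and from 110 to 450 around 282 for the subsets, and from 6 to 210 around 57 and from 10 to 192 around 52 for AML. Of 160 alternative log2 ratios of members, 0 changed sign and 155 moved from the main ratio by less than the half-width of its counting interval. The exceptions were Mrc1 (-1.53 with a pseudocount of 0.1 FPKM, normal spleen) and, with 5 FPKM, Vcam1 (-0.71 normal, -0.59 AML), Hmox1 (-1.15 normal) and Axl (-0.58 normal). Apart from the pseudocounts and filters, the causes were not tested. Depth limits Spic, Cd5l and Mrc1 most.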
